A study of Mus musculus with 2 samples.

Results

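The HoxA cluster on mouse chromosome 6 held 17 of the 28141 differentially methylated regions that the authors listed between PDGFRα+ and CD137+ adipose progenitors, and 15 of the 17 were less methylated in the PDGFRα+ cells. Of these, 13 followed one another without interruption from Hoxa3 to Hoxa6. The regions that were more methylated in PDGFRα+ cells numbered 2 and lay in Hoxa2 and Hoxa10. Regions were taken where they overlapped the cluster with 2 kb on each side, 52153367 to 52262880 in mm10, a window of 109.5 kb. They were thus selected on position among regions that the authors had already chosen by their difference in methylation, so their direction and size are given as a description, with no test.

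The assay was bisulfite sequencing of the whole genome, which converts cytosines without a methyl group and spares those with one. A level is the methylated fraction of a region's cytosines, from 0 to 1. The PDGFRα+ (CD140+) library came from C57BL/6 adipose progenitors sorted magnetically for the platelet-derived growth factor receptor α, and the CD137+ library from progenitors sorted for a receptor of the tumour necrosis factor family. Both were cultured, exposed to an adipogenic cocktail and then given 1 µM dexamethasone, a synthetic glucocorticoid, so no untreated group was compared. The cells came from subcutaneous or visceral fat, the labels do not say which depot gave which library, and surface marker and depot cannot be told apart. With 1 library per group there is no replicate check and no p-value, and since the depth of reads is unknown, levels carry no interval.

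Hox genes encode homeodomain transcription factors that give cells their position along the body axis. They lie in 4 clusters, and the order of genes in a cluster follows the order in which they are used from head to tail. In adult mesenchymal cells, fat progenitors included, the set of Hox genes in use still reflects the part of the body the cells came from, and DNA methylation and Polycomb proteins are known to help keep the others silent. In the HoxA cluster, coordinates increase from Hoxa2 towards Hoxa13. The Hoxa genes with a promoter sequence here all read on the minus strand.

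Listed regions touched 4 of the 17 annotated promoter windows in the cluster. A promoter window here runs from 250 bases before to 50 bases after an annotated start. The 4 are printed because they show which CpG sites at gene starts lie in listed regions. They come from RefSeq on GRCm38.p6, the assembly of mm10, each 5′ to 3′ on the strand of its gene, with capitals for the CpG sites that lie at least partly inside a listed region.
Hoxa5, chr6:52204538-52204837, minus strand: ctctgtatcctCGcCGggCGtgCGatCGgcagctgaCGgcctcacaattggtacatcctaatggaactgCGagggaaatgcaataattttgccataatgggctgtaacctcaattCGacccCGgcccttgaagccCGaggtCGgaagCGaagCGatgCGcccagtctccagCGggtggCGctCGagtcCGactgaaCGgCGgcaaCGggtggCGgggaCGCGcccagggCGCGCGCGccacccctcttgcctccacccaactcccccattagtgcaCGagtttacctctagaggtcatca
5730596B20Rik, chr6:52176905-52177204, plus strand: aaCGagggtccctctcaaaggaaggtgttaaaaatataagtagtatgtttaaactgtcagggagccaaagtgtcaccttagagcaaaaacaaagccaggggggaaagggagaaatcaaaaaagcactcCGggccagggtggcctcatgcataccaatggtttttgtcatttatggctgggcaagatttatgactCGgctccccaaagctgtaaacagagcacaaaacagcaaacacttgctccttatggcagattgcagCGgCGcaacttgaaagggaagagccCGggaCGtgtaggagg
Gm15050, chr6:52172631-52172930, plus strand: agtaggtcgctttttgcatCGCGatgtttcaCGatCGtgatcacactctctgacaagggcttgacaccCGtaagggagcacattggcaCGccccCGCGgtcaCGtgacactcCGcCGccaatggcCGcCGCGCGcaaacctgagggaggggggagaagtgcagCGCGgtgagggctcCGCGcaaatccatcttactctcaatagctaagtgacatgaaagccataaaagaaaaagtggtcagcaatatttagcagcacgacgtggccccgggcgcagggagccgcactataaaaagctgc
Hoxa2, chr6:52164782-52165081, minus strand: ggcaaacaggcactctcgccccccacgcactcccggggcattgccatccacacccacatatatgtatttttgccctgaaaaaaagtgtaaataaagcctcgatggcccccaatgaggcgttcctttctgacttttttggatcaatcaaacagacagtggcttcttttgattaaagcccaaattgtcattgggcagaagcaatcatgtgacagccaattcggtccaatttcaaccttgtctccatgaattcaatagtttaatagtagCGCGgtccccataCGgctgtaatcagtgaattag

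The promoters differed in how much of them was covered and in direction. The Hoxa5 window lay wholly inside a region of lower methylation in PDGFRα+ cells, with all 29 of its CpG sites. That of the non-coding RNA gene 5730596B20Rik also lay wholly inside a lower region, but it held only 7 CpG sites. In the window of the non-coding RNA gene Gm15050, 162 of 300 bases and 19 of 25 CpG sites were covered, all of them before the start. The region there lists only 16 cytosines, fewer than the CpG sites it covers, so not all of these sites entered its level. A CpG site has a cytosine on each strand, so more sites may be missing than these counts show. In Hoxa2 the higher region began 16 bases inside the gene and covered 34 bases of the window with 3 of its 9 CpG sites. The median promoter window of the mouse table held 7 CpG sites, and Hoxa5 stood at the 87.1 percentile of the 32851 windows. Regions that touched a promoter window made up 4 of 17 (23.5%) in the HoxA cluster, against 439 of 28141 (1.56%) over the whole table. The cluster holds 17 such windows in 109.5 kb, so the places where a region could touch one were dense.

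Short motifs were searched on both strands of these windows. CCAAT, the core of a common promoter element, occurred in all 4 of the windows with a region, with 1 match in Hoxa5 (204 bases before the start), 1 in 5730596B20Rik (98 before), 2 in Gm15050 and 4 in Hoxa2, and 37.4% of all promoter windows hold it. TGATNNAT, a short form of the site bound jointly by Hox and Pbx proteins, matched once, in Hoxa2 (111 bases before the start), and 8.85% of all windows hold it. TATAAA matched only in Gm15050 among the 4, inside the first 50 transcribed bases, and is held by 13.6% of all windows. GGGCGG, the core of the GC box, matched in none of the 4 and is held by 35.7% of all. A match is a stretch of letters and not a bound site.

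Hoxa2, which patterns the hindbrain and the second pharyngeal arch, had 3 regions within 2 kb. The first region, 52161241 to 52161409, stood at 0.108 in PDGFRα+ cells and 0.539 in CD137+ cells. The next, 52161893 to 52162070, stood at 0.132 in PDGFRα+ and 0.625 in CD137+. Both overlapped the span of Hotairm1, the first wholly and the next in part. Hotairm1 is a non-coding RNA gene beside Hoxa2, known in human myeloid cells. The regions held only 4 and 5 cytosines, so each level rests on few sites.

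The third region turned the other way. At 52164668 to 52164815, inside Hoxa2 next to its start, methylation stood at 0.704 in PDGFRα+ cells and 0.156 in CD137+ cells over 7 cytosines. It thus stood 2597 bases from a lower region on one side and 6866 bases from one on the other. Hoxa2 was the single Hoxa gene whose regions, counted within 2 kb, had both directions, with 2 lower and 1 higher.

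The span of Hoxa3 held the 13 regions of the uninterrupted lower block. Hoxa3 is needed for the thymus and parathyroid glands. Its RefSeq span, 52169059 to 52213067, includes transcript models that run over Hoxa4, Hoxa5 and Hoxa6. Part of the block therefore also lies in those genes, and part in non-coding genes. The block ran from 52171682 to 52206832, over 35.2 kb, with gaps of 634 to 6388 bases between regions. Its 13 regions held 335 of the 363 cytosines in the window. No other 13 consecutive listed regions in the genome lay so close together. The next tightest such stretch, in Cdon on chromosome 9, spanned 41.2 kb and was also lower throughout, and the median of the 27870 other stretches, which overlap one another, was 737.7 kb. The length of 13 was taken from the HoxA block itself, after its values were seen.

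In the low-coordinate part of the block the regions lay in Hoxa3 and in non-coding genes within its span. The first, 52171682 to 52171929, was methylated to 0.363 in PDGFRα+ and 0.954 in CD137+, the highest CD137+ level in the cluster. The region at the Gm15050 promoter, 52172650 to 52172811, reached 0.141 in PDGFRα+ and 0.498 in CD137+. A short one of 81 bases followed at 52174994, with 0.456 in PDGFRα+ and 0.846 in CD137+. Neighbouring regions therefore sat at quite different levels in both libraries while keeping the same direction.

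The promoter of 5730596B20Rik lay in the region 52176773 to 52177234, which had 0.108 in PDGFRα+ and 0.653 in CD137+ over 19 cytosines. Inside the same gene, the shortest region of the cluster, 60 bases at 52180466, had 0.522 in PDGFRα+ and 0.922 in CD137+. The region 52185260 to 52185442 had 0.105 in PDGFRα+ and 0.476 in CD137+, and was the densest of the 17 with 12.6 cytosines per 100 bases. It lay in a further non-coding gene of the Hoxa3 span, LOC115490409, which also covers Hoxa4.

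Hoxa4, which acts in the patterning of the neck vertebrae, had 1 region, 52190782 to 52190880, inside the gene. It stood at 0.105 in PDGFRα+ and 0.463 in CD137+. With 4 cytosines it was among the smallest in the cluster, and its difference of -0.36 among the narrowest.

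The widest differences of the cluster lay between Hoxa4 and Hoxa5. The region 52197269 to 52197781 had 0.196 in PDGFRα+ and 0.813 in CD137+ over 26 cytosines. The region 52200232 to 52200691 had 0.229 in PDGFRα+ and 0.880 in CD137+ over 21 cytosines. Their differences were -0.62 and -0.65, and neither lay in the span of a Hox gene other than Hoxa3.

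Hoxa5, known for its part in lung development and in the skeleton of the neck and thorax, had 5 regions within 2 kb, all lower in PDGFRα+ cells. Near its 3′ end, the region 52201945 to 52202053 had 0.458 in PDGFRα+ and 0.847 in CD137+. Further into the gene, 52202688 to 52203065 had 0.196 in PDGFRα+ and 0.621 in CD137+. The largest region of the cluster, 52203838 to 52205404, covered the start of Hoxa5 together with 749 bases of the gene after it and 817 bases before it. Methylation of this region was 0.185 in PDGFRα+ and 0.665 in CD137+ over 1567 bases and 148 cytosines. It held 40.8% of all cytosines listed in the cluster. Among all 28141 regions it ranked 1 by the size of the authors' area statistic, 2 by cytosines and 34 by length.

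Hoxa6, a gene of the thoracic part of the axis, shared that region, which took in all 270 bases between the genes and the last 547 bases of Hoxa6. A second region inside Hoxa6, 52206447 to 52206832, had 0.450 in PDGFRα+ and 0.925 in CD137+ over 27 cytosines. It closed the block. The start of Hoxa6 itself lay 1840 bases beyond it. Hoxaas3, a non-coding gene, spans 4 of these regions, and overlap alone does not assign a region to either gene.

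Beyond Hoxa6 the cluster was nearly empty of listed regions. The low-coordinate 53.5 kb of the window held 16 regions and the high-coordinate 56.0 kb held 1. No region lay in or within 2 kb of Hoxa7, which takes part in vertebral patterning, Hoxa9, which is best known in blood stem cells, or Hoxa11, which acts in the forearm, kidney and uterus. The nearest region was 8791 bases from Hoxa7, 4677 from Hoxa9 and 9945 from Hoxa11. Hoxa13, a gene of the digits and the urogenital tract, and Evx1, a homeobox gene next to the cluster, had none either. Hottip, a non-coding gene beside Hoxa13, also had none within 2 kb. Mir196b, a microRNA gene between Hoxa9 and Hoxa10, had none in its span, but the region in Hoxa10 lay 1882 bases from it. The table lists only regions called as different, so levels in this part are not known and may be high or low in both libraries.

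The exception was Hoxa10, which acts in the uterus and the lumbar spine. Its region, 52232047 to 52232160, was higher in PDGFRα+ cells, with 0.554 in PDGFRα+ and 0.131 in CD137+ over 12 cytosines. This region also lay in the span of the non-coding gene Gm52902, and overlap alone does not assign it to either gene. It lay 25214 bases from the end of the block and 2779 bases from the nearer of the Hoxa10 starts, so it touched no promoter window.

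**Figure D1:**
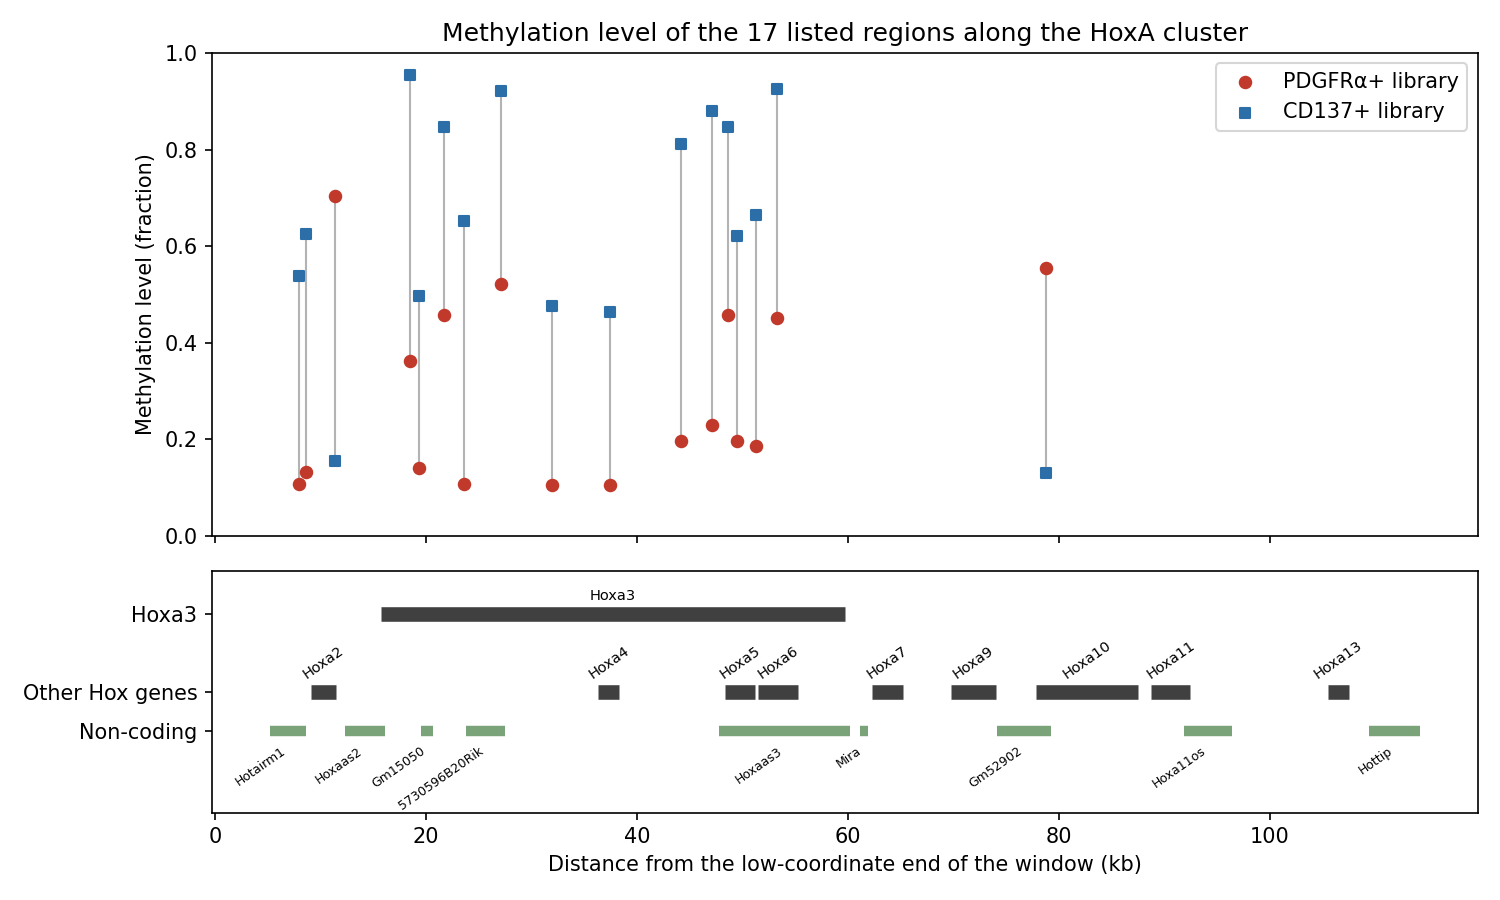
Upper panel: methylation level (fraction) of each of the 17 regions against distance from the low-coordinate end of the window in kb, with circles for the PDGFRα+ library, squares for the CD137+ library and a line joining the levels of a region. Lower panel: spans of Hox genes and of non-coding genes. The 13 regions in the span of Hoxa3 all have the circle below the square, and in Hoxa2 and Hoxa10 the order is turned.

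The map of levels along the cluster shows that direction changed with position and that the level did so from region to region. Counted by gene, 6 of the 9 genes from Hoxa2 to Hoxa11 had a region within 2 kb, against 29.5% of all protein-coding genes. The regions were mostly lower in 5 of the 6 (Hoxa2, Hoxa3, Hoxa4, Hoxa5 and Hoxa6) and mostly higher in Hoxa10. Hoxa2 counted as mostly lower through 2 regions outside its span, and the 1 region inside its span was higher. Over all protein-coding genes with a region, 70.4% were mostly lower. Because neighbours share regions, the mean levels of Hoxa3 (0.270 in PDGFRα+, 0.736 in CD137+), Hoxa5 (0.304 in PDGFRα+, 0.788 in CD137+) and Hoxa6 (0.277 in PDGFRα+, 0.737 in CD137+) are not separate measurements.

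Lower regions made up 88.2% of the cluster (95% Wilson interval 65.7 to 96.7, for counting error only and treating regions as independent), against 77.7% of all listed regions, a share inside that interval. The count alone therefore does not set the cluster apart from the table. Over the 17 regions the PDGFRα+ median was 0.196 and the CD137+ median 0.653, and the median difference was -0.43, against -0.49 over all listed regions. Weighted by length, PDGFRα+ averaged 0.238 and CD137+ 0.689. The regions covered 5317 bases, 4.86% of the window. They were 60 to 1567 bases long with a median of 178, against 216 over the whole table, and held 4 to 148 cytosines.

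**Figure D2:**
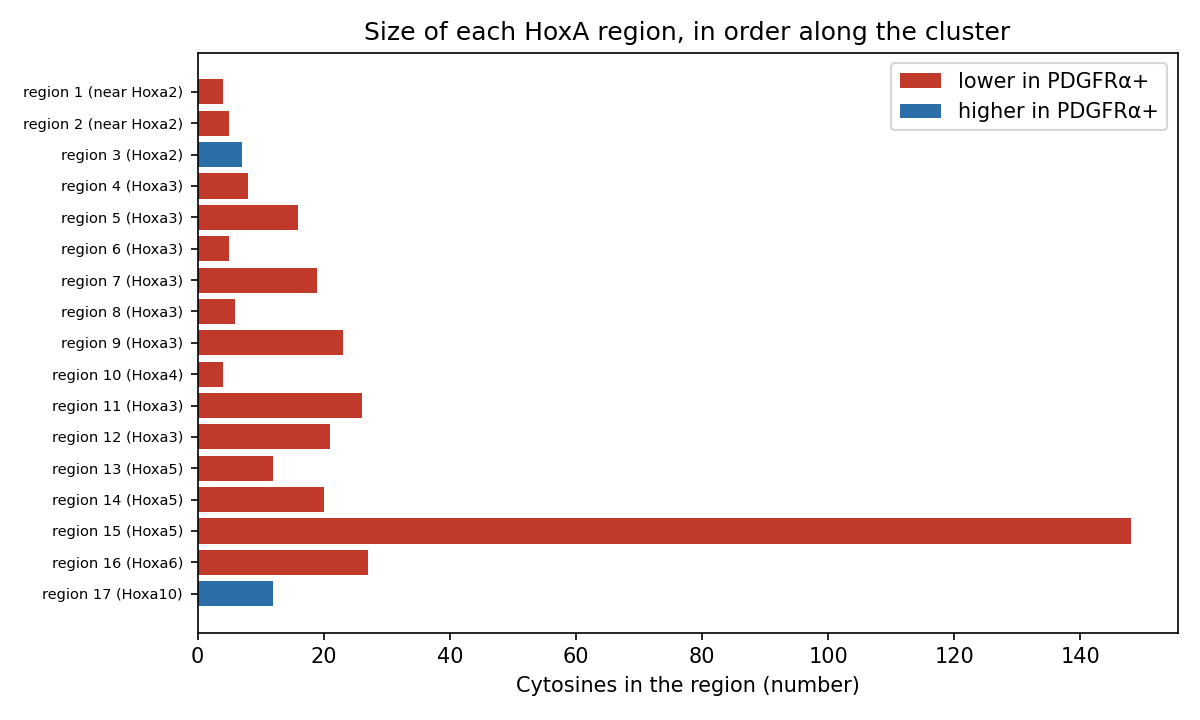
Number of cytosines (horizontal bars, starting at 0) in each of the 17 regions, from the low-coordinate end of the cluster at the top to the high-coordinate end at the bottom, coloured by direction in PDGFRα+ cells. The region at the start of Hoxa5 holds 148 cytosines and no other more than 27.

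Cytosines were denser in the cluster's regions than in the table, at 6.83 per 100 bases over all 17 against 4.32 over all listed regions, and at 5.73 without the large Hoxa5 region. The plot of cytosines per region shows how far the Hoxa5 region stands from the other 16. By the median over regions, the values were 5.29 in the cluster and 4.62 in the table. The authors' area statistic had a median size of 66.2 in the cluster and 57.8 in the table.

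Among the 15 lower regions the CD137+ level was often intermediate. It lay under 0.7 in 8 of the 15 (53.3%), against 16.2% of all lower regions in the table. Medians were 0.196 in PDGFRα+ and 0.665 in CD137+ for the cluster's lower regions, against 0.261 in PDGFRα+ and 0.820 in CD137+ for all lower regions. Differences of at least 0.5 were accordingly fewer, 4 of 15 (26.7%) against 60.0%. The threshold of 0.7 was chosen after the values were seen. An intermediate level can come from a mixture of cells or from partly methylated molecules, and the table cannot tell these apart.

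The levels of the 2 libraries moved together across these regions. In 10 of the 15 the PDGFRα+ level was between 0.105 and 0.229, with CD137+ levels of 0.463 to 0.880. In the other 5 it was between 0.363 and 0.522, and there CD137+ levels were 0.846 to 0.954. The CD137+ ranges of the 10 and the 5 overlap, since the region with 0.229 in PDGFRα+ had 0.880 in CD137+. Spearman's rank correlation of the levels was 0.839 over the 15 regions and 0.633 over all lower regions of the table, as a description. The points share both libraries and were all listed for their difference.

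The other Hox clusters had mostly the opposite direction. In HoxD, 0 of 12 regions were lower in PDGFRα+ cells. The Wilson interval reaches 24.2%, for counting error only and treating regions as independent. In HoxB 1 of 9 and in HoxC 1 of 5 were lower. Median differences were 0.48 in HoxD, 0.43 in HoxB and 0.49 in HoxC, against -0.43 in HoxA. HoxD regions had a median of 0.828 in PDGFRα+ and 0.323 in CD137+. All clusters were read in the same 2 libraries, and no test between them was made because regions are not replicates.

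**Figure D3:**
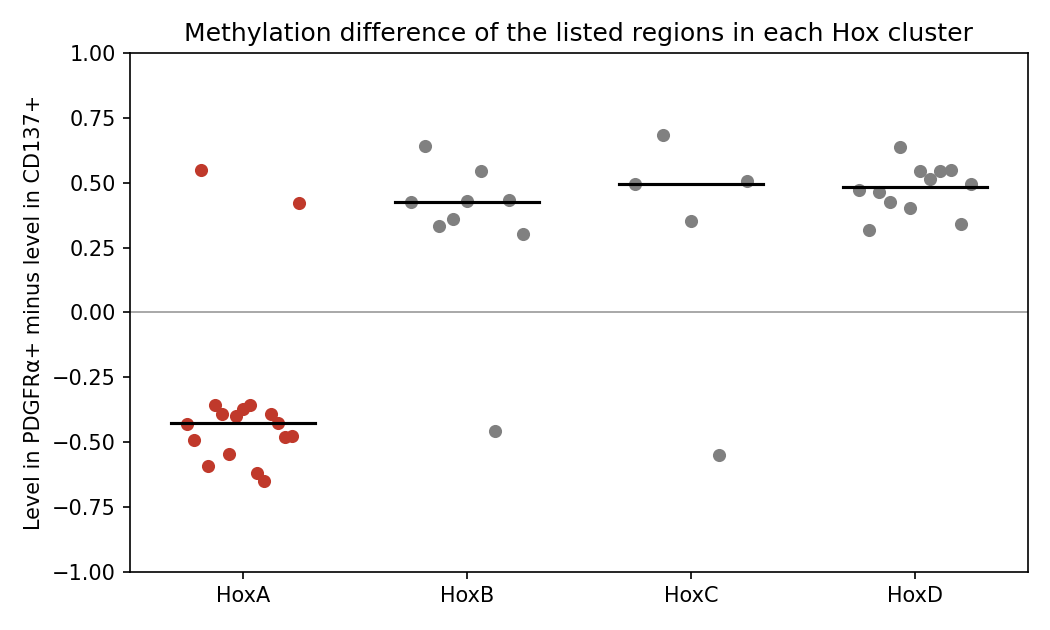
Level in PDGFRα+ minus level in CD137+ (vertical axis) for each listed region of the HoxA, HoxB, HoxC and HoxD clusters, spread sideways in genomic order, with a line at each cluster's median. HoxA has 15 of 17 points below 0, and the other clusters together have 2 of 26 below 0.

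Regions also lay closer together in HoxA, at 15.5 per 100 kb of window, against 11.9 in HoxD, 5.06 in HoxB and 4.18 in HoxC. The HoxB window is the longest, at 177.9 kb. It runs out to Hoxb13, whose nearest listed region was 92775 bases away, which lowers the HoxB density. In HoxB, the region of Hoxb3 with the largest statistic had 0.780 in PDGFRα+ and 0.346 in CD137+. In HoxD, that of Hoxd3 had 0.645 in PDGFRα+ and 0.244 in CD137+. Both genes are paralogues of Hoxa3, whose 13 regions were all lower. Of the 5 regions within 2 kb of Hoxb3, 4 were higher and 1 was lower, with 0.169 in PDGFRα+ and 0.625 in CD137+, and all 7 of Hoxd3 were higher. Of the 28 Hox genes in the other clusters, 14 had a region within 2 kb, 13 of them mostly higher and 1 split, beside 29.5% of all protein-coding genes with a region, of which 70.4% were mostly lower.

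**Figure D4:**
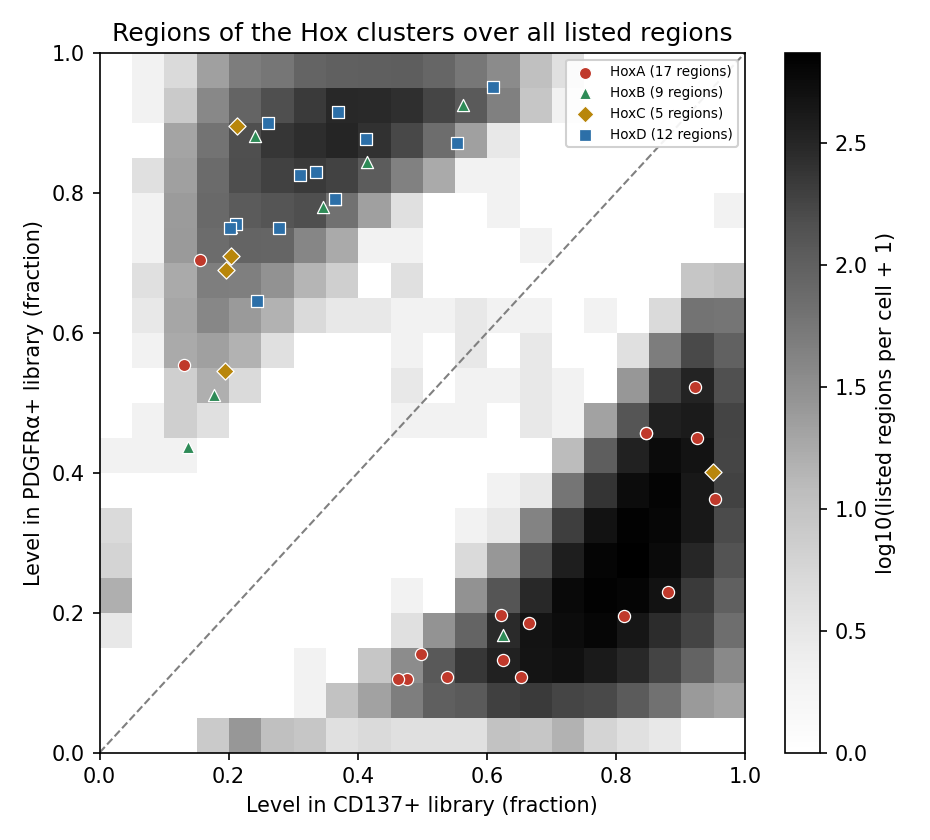
Level in the PDGFRα+ library (vertical axis) against level in the CD137+ library (horizontal axis) for the regions of the 4 Hox clusters, over a grey map of all 28141 listed regions (log10 of the number per cell plus 1). Of the HoxA circles 15 lie below the diagonal, 8 of these with CD137+ levels under 0.7, and the HoxD squares all lie above it.

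At the edges of the window, the nearest listed region on the low side ended 39 bases outside it, at 52152989 to 52153328. It was higher in PDGFRα+ cells, with 0.865 in PDGFRα+ and 0.446 in CD137+ over 21 cytosines. On the high side the nearest was 28367 bases away, at 52291247 to 52291680 between Hottip and Evx1, with 0.108 in PDGFRα+ and 0.682 in CD137+. The lower block was thus flanked on the low side by higher regions at Hoxa2 and just outside the window, with the Hotairm1 pair between them.

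Hox proteins bind DNA together with Pbx, Meis and Pknox cofactors. Of the cofactor genes, Meis2 was lower in 4 of 6, and its region with the largest statistic was higher, with 0.936 in PDGFRα+ and 0.420 in CD137+.

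The genes of the sorting markers gave little to compare. Pdgfra had 1 region, with 0.210 in PDGFRα+ and 0.769 in CD137+, and Tnfrsf9, the gene of CD137, had none within 2 kb. Of 22 leukocyte marker genes, 13 had a region, 7 of them mostly higher in PDGFRα+ cells, 4 mostly lower and 2 split, with 23 of their 33 regions higher. The shares over all protein-coding genes, 29.5% with a region and 70.4% of these mostly lower, and the 77.7% of all regions that were lower stand beside these counts. Whether cells other than progenitors had a part in the HoxA levels was not tested.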

How the data were processed

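Whole-genome bisulfite sequencing had been done on 1 PDGFRα+ and 1 CD137+ library. The table used was made by the authors and has 10 columns. Per the file headers, each library's methylation level was deposited as a fraction, and the number of cytosines per region as a whole-number count, which is not a count of reads. The signed area statistic was deposited as a score. The deposited difference is CD140 minus CD137, and it matched the deposited levels within 0.0001. Per the submitters' processing notes, positions are on mm10. Aligner, caller, thresholds and read coverage were not given in the sources used here, so levels have no interval.

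Coordinate base and cytosine context were read from the sequence. Of 86 regions that lie wholly inside a RefSeq promoter window, all 86 begin and end on a cytosine of a CpG site if the deposited start is counted from 0, against 29 of 86 beginning on one if it is counted from 1. Starts are therefore printed as the deposited start plus 1. The number of cytosines never exceeded the CpG cytosines of both strands in these 86, and equalled them in 43.

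Regions were assigned to RefSeq gene spans on GRCm38.p6 with 2 kb on each side, with an overlap of at least 1 base. Gene strand came from the promoter table, and exons were not used here. The overlap search gave 0 differences from a plain search in 300 genes. No test between groups was made. All regions of the window are named, together with genes of the cluster, Evx1, the nearest region on each side and up to 2 genes of each further list with the largest area statistics. Not every item that this selects is reported here. Other genes were chosen after their values were seen. Members, lists and thresholds were chosen with earlier results of these data known. Software was pandas 2.3.3, numpy 2.4.6, matplotlib 3.10.9 and scipy 1.17.1 under Python 3.11.15.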

Additional observations from a re-analysis of the deposited data

How the results depend on the processing

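The direction held under every alternative tried, with 80.0% to 90.0% of HoxA regions lower in PDGFRα+ cells. All alternatives drew on the same list of called regions, so they are not independent checks. The minimum difference of 0.3 and the window without flank removed no region. With differences of at least 0.5 only, 5 regions remained, of which 4 were lower, with a median difference of -0.591, 1831 covered bases and 3 genes from Hoxa2 to Hoxa11 with a region. With at least 10 cytosines, and likewise with area statistics above the table's median, 10 regions remained, of which 9 were lower. Weighted by cytosines instead of length, levels were 0.240 in PDGFRα+ and 0.672 in CD137+, and unweighted they were 0.295 in PDGFRα+ and 0.648 in CD137+. With 10 kb on each side 18 regions were counted, 15 of them lower, and 9 of the 9 genes had a region. Gene spans alone were tried only for the number of genes with a region, which was 6, and not for their direction. The minimum difference of 0.3, the minimum of 5 cytosines, no flank, gene spans alone and merging of neighbours left counts within 1.5 times and medians inside the 95% binomial interval of the median. No paired analysis was possible because each group has 1 library. For the same reason no replicate could be left out, and unknown read depth limits how finely any level can be read.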

Other observations

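Genes that set or read Hox expression were also listed by role. Of 31 Polycomb and trithorax genes, whose proteins keep Hox genes silent or active, 10 had a region within 2 kb, 6 mostly lower in PDGFRα+ cells, 3 mostly higher and 1 split. Both counts are near the shares over all protein-coding genes, of which 29.5% had a region and 70.4% of those were mostly lower. The largest statistics were those of Bmi1, a Polycomb gene, with 0.855 in PDGFRα+ and 0.395 in CD137+, and Aebp2, a cofactor of the Polycomb methyltransferase complex, with 0.306 in PDGFRα+ and 0.792 in CD137+. Of 14 genes of retinoic acid signalling, a known inducer of Hox genes, 10 had a region, 8 mostly lower and 2 mostly higher, beside the same 29.5% and 70.4%. Cyp26c1, which encodes a retinoic acid hydroxylase, had 0.352 in PDGFRα+ and 0.841 in CD137+. Rxrb, a retinoid receptor gene, had 0.267 in PDGFRα+ and 0.896 in CD137+, in a region within 2 kb but outside its span.

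Of 8 genes of CTCF and cohesin, which shape chromatin loops at Hox clusters, 2 had a region, near the 29.5% of all protein-coding genes. They were Smc3 (0.427 in PDGFRα+, 0.892 in CD137+) and Nipbl (0.412 in PDGFRα+, 0.892 in CD137+), while Ctcf had none. The Nipbl region lay within 2 kb of the gene but outside its span. Among promoter windows of the HoxA cluster, that of Hoxa13 held the most CpG sites, 45, and that of Hoxa11os 41, and neither touched a listed region. The Hoxa10 gene has 2 promoter windows, with 21 and 12 CpG sites, and neither was touched.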
